A study of Mus musculus with 6 samples.

Results

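The genes described here control how much active thyroid hormone a cell holds: the deiodinases Dio1, Dio2 and Dio3, and Slc16a10, a transporter of aromatic amino acids that also carries thyroid hormone across the cell membrane. They are 4 of the 24964 gene symbols in the deposited table and were picked by symbol, with the control and deficient values of these same libraries known. Their levels are therefore given as a description, with no test. RNA was sequenced from mouse uterus next to implanted embryos on gestation day 13, in 3 control libraries and 3 libraries labelled as a knockout of the progesterone receptor (PGR) in myometrium, the muscle wall of the uterus. Strain, age, the allele and the Cre driver behind the knockout, and whether each library is 1 animal, were not given in the sources used here. Since separate animals are not stated, a p-value covers the spread among libraries alone, and that spread may be technical. Pgr, the gene the knockout targets, was at 9.72, 8.33 and 12.1 FPKM (fragments scaled to gene length and library size) in controls 1 to 3 and 11.3, 12.4 and 7.73 FPKM in deficient 1 to 3. The groups overlapped (limma adjusted p = 0.91), so the level of the whole gene in this mixed tissue does not bear out the label, and every direction below rests on the label.

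Deiodinases are selenoproteins that remove single iodine atoms from thyroid hormone. Dio2 converts the prohormone thyroxine (T4) into the active hormone triiodothyronine (T3), Dio3 inactivates both hormones, and Dio1, best known from liver, kidney and thyroid, can do either. In the pregnant rodent uterus Dio3 is known for high activity in the decidua and epithelium around the conceptus, where it limits the hormone that reaches the embryo.

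The shared active site shows how closely the 3 enzymes are related although they act in opposite directions. Each is built around selenocysteine, which is encoded by TGA, a codon that normally ends a protein. The coding sequence around that codon is shown from GENCODE M21 (GRCm38), with 30 bases on either side and the TGA in capitals; the coordinates are those of the codon.
Dio1, codon 126, chr4:107297700-107297702, minus strand: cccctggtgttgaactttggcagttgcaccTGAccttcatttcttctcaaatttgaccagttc
Dio2, codon 130, chr12:90729823-90729825, minus strand: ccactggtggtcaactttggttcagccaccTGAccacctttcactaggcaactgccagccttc
Dio3, codon 170, chr12:110279739-110279741, plus strand: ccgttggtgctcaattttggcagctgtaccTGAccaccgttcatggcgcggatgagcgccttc
Of the 63 bases, 41 were identical between Dio2 and Dio3, 37 between Dio1 and Dio3 and 36 between Dio1 and Dio2, and 30 were shared by all 3. The annotation gives Dio2 a second selenocysteine codon at position 263 of 266, and Dio1 and Dio3 a single one each.

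Promoter sequences are shown for Dio2 and Dio3, the members that differed between the groups in opposite directions. They come from RefSeq (GRCm38.p6) and run from 250 bases before to 50 bases after the start annotated there, 5′ to 3′ on the strand of the gene. These starts are not those of the GENCODE genes given below. The Dio2 window lies wholly upstream of the GENCODE gene, whose start on the minus strand is at 90738438, and the Dio3 window spans the GENCODE start at 110279068. Capitals mark matches, on either strand, to the cyclic AMP response element TGACGTCA and the TATA core TATAAA in Dio2, and to the GC box GGGCGG and TATAAA in Dio3.
Dio2 promoter, chr12:90738989-90739288, minus strand: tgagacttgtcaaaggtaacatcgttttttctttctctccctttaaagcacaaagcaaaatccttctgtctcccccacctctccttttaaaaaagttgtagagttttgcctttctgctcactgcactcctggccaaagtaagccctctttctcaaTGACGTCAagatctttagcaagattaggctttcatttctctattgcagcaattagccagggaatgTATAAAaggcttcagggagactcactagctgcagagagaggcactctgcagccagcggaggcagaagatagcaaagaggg
Dio3 promoter, chr12:110278980-110279279, plus strand: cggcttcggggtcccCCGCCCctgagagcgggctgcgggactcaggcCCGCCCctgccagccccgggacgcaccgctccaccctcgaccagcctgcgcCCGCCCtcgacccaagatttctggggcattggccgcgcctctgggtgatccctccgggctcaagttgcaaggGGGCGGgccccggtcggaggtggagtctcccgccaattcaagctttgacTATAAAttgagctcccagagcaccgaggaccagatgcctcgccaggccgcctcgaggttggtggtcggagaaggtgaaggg
The Dio2 window held TGACGTCA once, starting 95 bases before the start site, a motif found in 1.79% of 32851 mouse promoters of the same length. Dio3 held 4 GC boxes, a motif found in 35.7% of promoters. TATAAA was present once in each, 30 bases before the start in Dio2 and 31 before it in Dio3, and in 13.6% of all promoters. The hexamer TGTTCT, which steroid receptors including PGR are known to bind, occurred in 19% of promoters and in none of the 4 members' windows. The motifs were chosen with these sequences in view, and a match is a string of letters, not evidence of binding.

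Summed FPKM was between 357126 and 377091 per library. Over genes between 0.06 and 0.5 FPKM the commonest ratio of a library to control 1 was 1 or 1.01, so the value of 1 read was nearly equal in all 6 columns, but the depth of each library is unknown. The third library stood apart in both groups. Across the genes tested, controls 1 and 2 had a correlation of 0.992 on the log2 scale, against 0.983 and 0.982 for control 3. Between deficient 1 and 2 it was 0.991, against 0.976 and 0.971 for deficient 3. Genes are not independent replicates, and what sets these libraries apart was not tested. Values without them are given beside some of the results they touch.

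Dio2 (chr12:90724552-90738438, GRCm38, minus strand, 2 exons) was higher in the libraries labelled deficient. It stood at 8.34, 7.40 and 4.65 FPKM in controls 1 to 3 and at 23.3, 19.9 and 17.7 FPKM in deficient 1 to 3. The groups did not overlap, and the lowest deficient library was above the highest control by more than the spread within either group. The means were 6.79 ± 1.92 and 20.3 ± 2.81 FPKM (SD, n = 3 each), 2.99 times the control level, and the difference in log2(FPKM + 1) was 1.47. That scale understates changes of low values. With the third library of both groups left out it was 1.35.

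Dio3 (chr12:110279068-110281097, plus strand, 1 exon) showed the opposite order. Controls 1 to 3 were at 19.2, 14.3 and 46.0 FPKM and deficient 1 to 3 at 7.46, 6.56 and 0.768 FPKM. Every control lay above every deficient library, but the third library of each group was extreme, the highest of the controls and the lowest of the deficient. The mean was 26.5 ± 17.1 FPKM in the controls and 4.93 ± 3.63 FPKM in the deficient libraries (SD, n = 3 each), 5.37 times higher in the controls. On the log2(FPKM + 1) scale the difference was -2.33, and -1.14 with the third library of both groups left out.

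Dio1 (chr4:107291465-107307169, minus strand, 4 exons) was close to absent. It was listed at 0.016 FPKM in control 1, at 0 in controls 2 and 3, at 0.08 and 0.274 FPKM in deficient 1 and 2 and at 0 in deficient 3. These values are about 1, 5 and 17 times the smallest one, 0.016 FPKM (17.1 before rounding), so that value may be what 1 read is worth. A floor of 3 reads would be 0.048 FPKM, so only deficient 1 and 2 exceeded it, and no fold is given. In deficient 2 the plasma hormone carrier Ttr was also at its highest, 1.049 FPKM against at most 0.022 in the other 5 libraries. In deficient 1 Ttr was at 0. Another plasma carrier, albumin (Alb), was highest in deficient 3, at 4.25 FPKM, where Dio1 and Ttr were at 0. The part of any other tissue in these values was not tested.

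The transporter Slc16a10 (chr10:40033532-40142258, minus strand, 6 exons) was low and overlapped between the groups. Controls 1 to 3 were at 1.32, 1.55 and 1.01 FPKM and deficient 1 to 3 at 1.22, 1.41 and 1.17 FPKM. Mean levels were 1.29 ± 0.27 and 1.26 ± 0.13 FPKM (SD, n = 3 each), and the difference in log2(FPKM + 1) was -0.01, smaller than the SD of 0.17 within the controls on that scale.

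**Figure D1:**
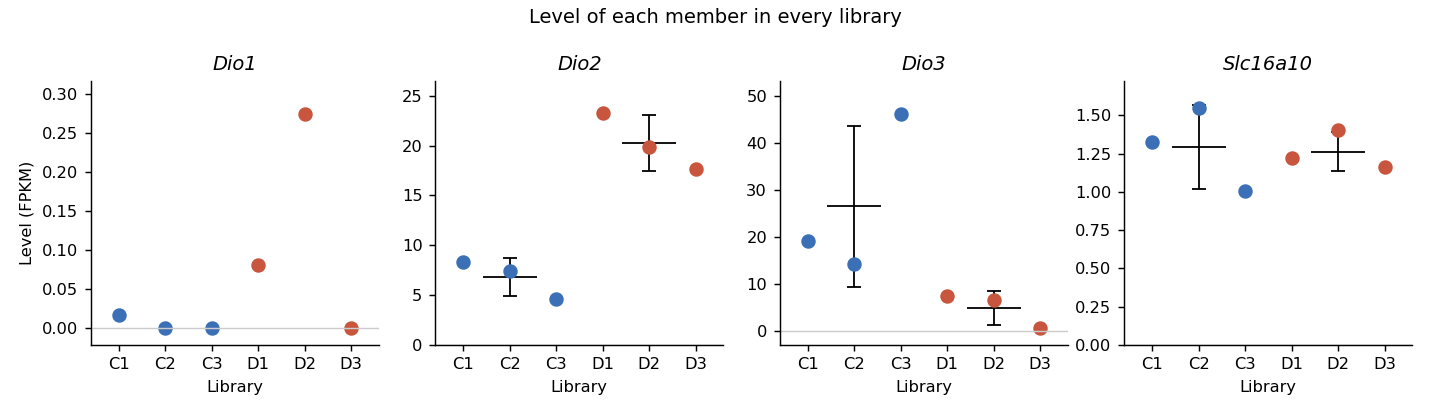
Level in FPKM of Dio1, Dio2, Dio3 and Slc16a10 in each library, with control libraries C1 to C3 in blue and libraries labelled deficient D1 to D3 in red; black lines are group means with SD (n = 3), left out for Dio1, which is at 0 in 3 libraries. Dio2 is between 4.65 and 8.34 FPKM in the controls and between 17.7 and 23.3 FPKM in the deficient libraries, Dio3 shows the reverse order, and Slc16a10 overlaps.

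Dio2 and Dio3 were the 2 members whose groups did not overlap. Over the 12500 genes whose mean reached 1 FPKM, 29.0% had groups that did not overlap, 20.8% with the deficient libraries above and 8.16% with the controls above. The limma threshold of an adjusted p of 0.05 was passed by 3.34% of all genes tested, 1.34% higher and 1.99% lower in the deficient libraries. These genes tested include 3 of the members (Dio1 did not reach the mean). The members were chosen from this contrast, so no call is given for them and nothing is read from their separation.

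The balance between the transcripts of the activating and the inactivating enzyme lay on opposite sides in the groups. FPKM is scaled to gene length, so levels of different genes can be compared on it. The ratio of the Dio2 to the Dio3 level was 0.434, 0.518 and 0.101 in controls 1 to 3 and 3.12, 3.03 and 23.0 in deficient 1 to 3. By these values Dio3 was the more abundant deiodinase transcript in every control and Dio2 in every library labelled deficient. The mean difference in log2(FPKM + 1) between Dio2 and Dio3 was -1.68 ± 1.20 in the controls and 2.13 ± 1.10 in the deficient libraries (SD, n = 3 each), 3.81 apart. With the third library of both groups left out the distance was 2.48. The summed level of the 3 deiodinases overlapped, at 27.6, 21.7 and 50.6 FPKM in the controls and 30.8, 26.7 and 18.5 FPKM in the deficient libraries. In all 3 controls the order of levels was Dio3, Dio2, Slc16a10, Dio1. Deficient 1 and 2 had the order Dio2, Dio3, Slc16a10, Dio1, and in deficient 3 Dio3 was below Slc16a10.

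Next to Dio3 lies Dio3os, a long noncoding RNA gene transcribed in the opposite direction. Dio3os lies at chr12:110275385-110278172 on the minus strand. In the annotation 895 bases lie between its start and that of Dio3, so the models do not overlap. Its level was 14.6, 17.1 and 21.7 FPKM in controls 1 to 3 and 28.2, 24.7 and 2.01 FPKM in deficient 1 to 3. Deficient 1 and 2 were above every control, and deficient 3, the library with almost no Dio3, was far below. Its log2 difference was -0.50 with a 95% confidence interval from -2.55 to 1.54, and did not pass (limma adjusted p = 0.77). It turned to 0.56 without deficient 3, and to 0.70 with a limma adjusted p of 0.030 when the third library of both groups was left out. The microRNA gene Mir1247, inside the Dio3os model on the same strand, had levels of 3.63, 4.64 and 7.29 FPKM in the controls and 8.94, 6.31 and 0 FPKM in the deficient libraries. Reads from the shared bases may have been counted for either, so the split between Dio3os and Mir1247 is uncertain.

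**Figure D2:**
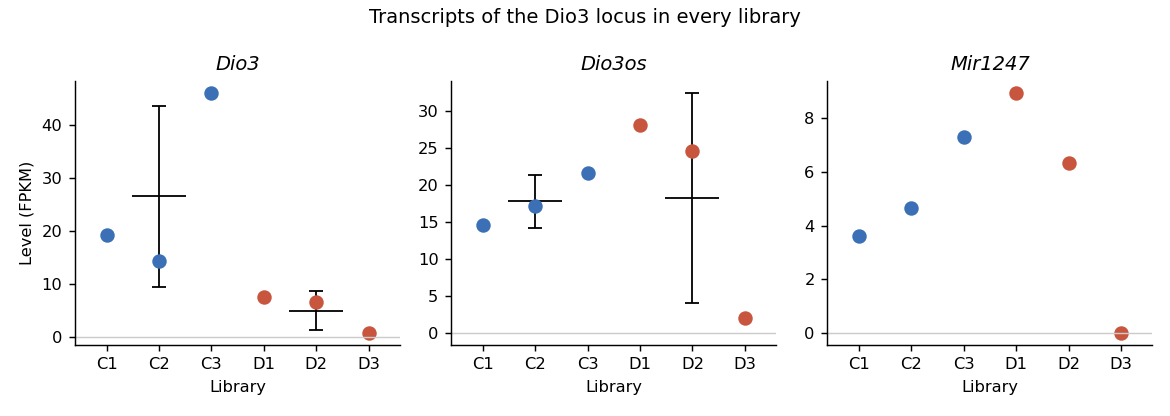
Level in FPKM of Dio3, Dio3os and Mir1247 in each control library (C1 to C3, blue) and library labelled deficient (D1 to D3, red); black lines are group means with SD (n = 3), left out for Mir1247, which is at 0 in 1 library. Dio3os is at 28.2 and 24.7 FPKM in D1 and D2 while Dio3 is at 7.46 and 6.56 FPKM, and all 3 transcripts are lowest in D3.

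The ratio of Dio3 to Dio3os separated the groups even though Dio3os alone did not. It was 1.31, 0.833 and 2.12 in controls 1 to 3 and 0.264, 0.266 and 0.382 in deficient 1 to 3. All deficient libraries, deficient 3 included, thus held less Dio3 per Dio3os than any control. Because Dio3 enters the ratio, this too is a description.

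**Figure D3:**
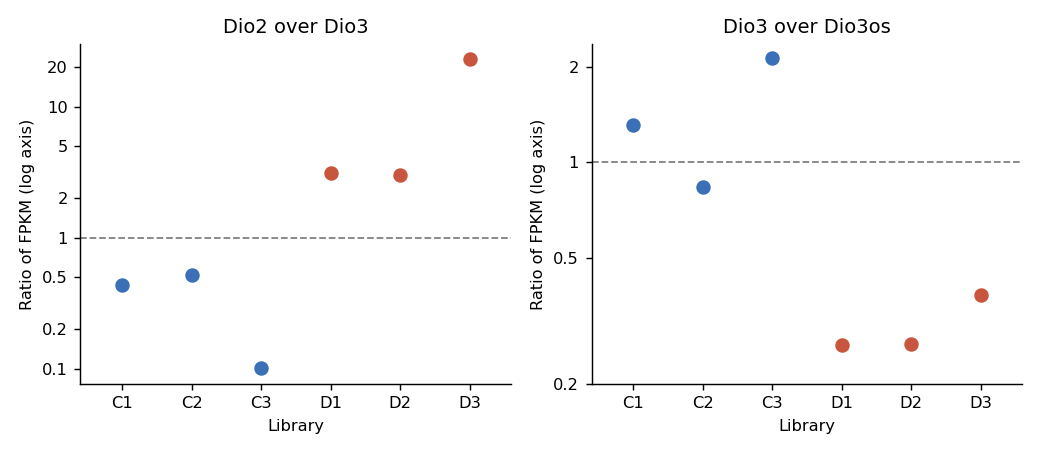
Ratio of Dio2 to Dio3 (left) and of Dio3 to Dio3os (right) in FPKM, on log axes, in each control library (C1 to C3, blue) and library labelled deficient (D1 to D3, red); the dashed line marks equal levels. The ratio of Dio2 to Dio3 is below 1 in every control and above 1 in every deficient library, and that of Dio3 to Dio3os is at most 0.382 in the deficient libraries and at least 0.833 in the controls.

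Dio3 is the distal gene of the imprinted Dlk1-Dio3 domain, where Dlk1, Rtl1 and Dio3 are expressed mainly from the paternal and the noncoding Meg3, Rian and Mirg from the maternal chromosome. Of the other 7 genes of this domain that were examined, 3 were tested, 1 fell, 0 rose and 2 did not pass. Meg3 (chr12:109541001-109571726, plus strand) had levels of 5.22, 5.86 and 5.39 FPKM in the controls and 3.60, 3.62 and 3.34 FPKM in the deficient libraries. All 3 deficient values lay below the controls. The log2 difference of Meg3 was -0.52 (SE 0.07) with a limma adjusted p of 0.017. Leaving out any 1 library except the third of either group ended the call (adjusted p up to 0.073). Rian was at 7.64, 9.69 and 6.35 FPKM and at 4.58, 5.36 and 4.11 FPKM, with groups apart and a limma adjusted p of 0.087. With the third library of both groups left out Rian passed (log2 difference -0.69, limma adjusted p = 0.045). Mirg, below the minimum mean, was between 0.753 and 1.235 FPKM in the controls and between 0.502 and 0.792 FPKM in the deficient libraries. The paternal genes Dlk1 and Rtl1 were close to 0, at most 0.028 and 0.051 FPKM in the controls. Dlk1 was at 0.428 FPKM in deficient 3 and at most 0.011 FPKM in the other deficient libraries.

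The remaining thyroid hormone pathway was examined in 9 lists, that domain among them, with 81 genes in the table, of which 56 were tested, 2 fell (Meg3 and Rcan2) and 0 rose. The 2 calls are 3.57% of the pathway genes tested, close to the 3.34% of all genes. At an unadjusted p under 0.05 there were 19 (33.9%), against 21.5% of all genes tested, and nothing is read from this difference because the lists were chosen with results known. The median log2 difference of the 56 was 0.08, and 0.06 over all genes tested. With the third library of both groups left out 9 pathway genes passed, 5 higher and 4 lower, beside 1275 of all 12511 genes tested. Without deficient 3 alone 5 passed, 3 higher and 2 lower, beside 525 of 12473. In the main comparison 417 of 12500 genes passed. Calls thus rose over all genes in these fits, and the added pathway calls, named below where given, are not read as particular to the pathway.

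Among 13 other genes for thyroid hormone transporters, 8 were tested, 0 rose and 0 fell. The organic anion transporter Slco4a1, known to carry T3, was at 15.2, 12.5 and 10.9 FPKM in controls 1 to 3 and at 29.0, 37.6 and 13.9 FPKM in deficient 1 to 3. Deficient 3 lay within the control range, and among the alternatives run the gene passed only when deficient 3 was left out (log2 difference 1.30, limma adjusted p = 0.020) or the third library of both groups (1.20, adjusted p = 0.022). Slco3a1 and Slc17a4 had higher values in every control, with log2 differences of -0.35 and -0.37 and limma adjusted p of 0.11 and 0.20. Slco1c1, a T4 transporter of the blood-brain barrier, was at most 0.034 FPKM in any library.

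The hormone receptors did not pass either: of 5 receptor genes 4 were tested, with 0 calls. Thra, the thyroid hormone receptor alpha, was at 16.1 ± 1.06 and 17.3 ± 1.55 FPKM (SD, n = 3 each), and Thrb, the beta receptor, at 1.13 ± 0.15 and 1.239 ± 0.036 FPKM. Their log2 differences had 95% confidence intervals from -0.11 to 0.29 and from -0.13 to 0.28. The 11 coregulators were all tested, with 0 calls and a median log2 difference of 0.13. The corepressor Ncor1 and the Ncor complex subunit Tbl1xr1 lay above the controls in every deficient library, with limma adjusted p of 0.18 and 0.13. Hr (hairless), a corepressor that is itself induced by T3 in the brain, had levels of 1.05, 1.20 and 0.663 FPKM in the controls and 1.41, 1.54 and 2.80 FPKM in the deficient libraries (log2 difference 0.54, limma adjusted p = 0.20).

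Of 13 genes known in other tissues to respond to T3, 11 were tested, 1 fell and 0 rose, with a median log2 difference of -0.17. Rcan2, an inhibitor of calcineurin that T3 is known to induce in human fibroblasts, lies on chromosome 17. It had levels of 1.72, 1.63 and 1.79 FPKM in the controls and 0.573, 0.758 and 0.980 FPKM in the deficient libraries. The log2 difference of Rcan2 was -0.62 (SE 0.11) with a limma adjusted p of 0.035, lost with no filter (0.091) and without any 1 library other than deficient 3 (adjusted p up to 0.15). The transcription factor gene Klf9, the retinaldehyde dehydrogenase gene Aldh1a1 and Pdk4, a pyruvate dehydrogenase kinase, were below every control in every deficient library. They did not pass (limma adjusted p = 0.11, 0.14 and 0.14). With the third library of both groups left out Klf9 passed (log2 difference -0.31, limma adjusted p = 0.046). Gpd2, the mitochondrial glycerol phosphate dehydrogenase, lay above every control (limma adjusted p = 0.17). Gpd2 passed without deficient 3 (log2 difference 0.49, limma adjusted p = 0.028) and without the third library of both groups (0.47, adjusted p = 0.031). Thrsp, a classic T3 target of liver, overlapped, at 2.09, 1.58 and 5.42 FPKM and at 2.96, 1.41 and 2.78 FPKM.

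Of the genes for proteins that bind, conjugate or degrade, 7 of 10 were tested with 0 calls, 3 in the carrier and conjugation list and 4 in the list of proteins that tag or untag deiodinase 2 for degradation. Crym, a cytosolic T3-binding protein below the minimum mean, had levels of 1.10, 1.45 and 0.973 FPKM in the controls and 0.259, 0.629 and 0.216 FPKM in the deficient libraries, with groups apart and no test. Sult1d1, a sulfotransferase, was at 118.2 ± 21.8 and 82.4 ± 13.4 FPKM (SD, n = 3 each, limma adjusted p = 0.18). Albumin (Alb) was between 0.354 and 0.448 FPKM in the controls, and stood at 1.05, 0.912 and 4.25 FPKM in the deficient libraries (limma adjusted p = 0.21). Usp20, a deubiquitinase known to rescue deiodinase 2, was at 4.24 ± 0.071 and 5.04 ± 0.11 FPKM (SD, n = 3 each, limma adjusted p = 0.12), and Wsb1, part of the ubiquitin ligase for it, overlapped.

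Selenoprotein synthesis, on which all 3 deiodinases depend, gave 9 genes tested of 11 and 0 calls. Pstk, a kinase that prepares the selenocysteine tRNA, had levels of 10.7, 10.3 and 9.67 FPKM in the controls and 8.25, 8.79 and 7.94 FPKM in the deficient libraries (log2 difference -0.26, limma adjusted p = 0.095). Sephs2, which makes the selenium donor, was at 17.7, 18.0 and 15.8 FPKM and at 25.7, 28.4 and 18.0 FPKM (log2 difference 0.44, limma adjusted p = 0.20), and passed with the third library of both groups left out (0.57, adjusted p = 0.021). Of 11 genes named for hormone synthesis in the thyroid gland, 3 were tested with 0 calls. Thyroglobulin (Tg) was at most 0.026 FPKM, and Nkx2-1 was at 0 in every library, while Pax8 and Tshr, the receptor for thyrotropin, were well expressed in the uterus, at 71.0 ± 10.3 and 26.2 ± 7.37 FPKM in the controls (SD, n = 3).

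**Figure D4:**
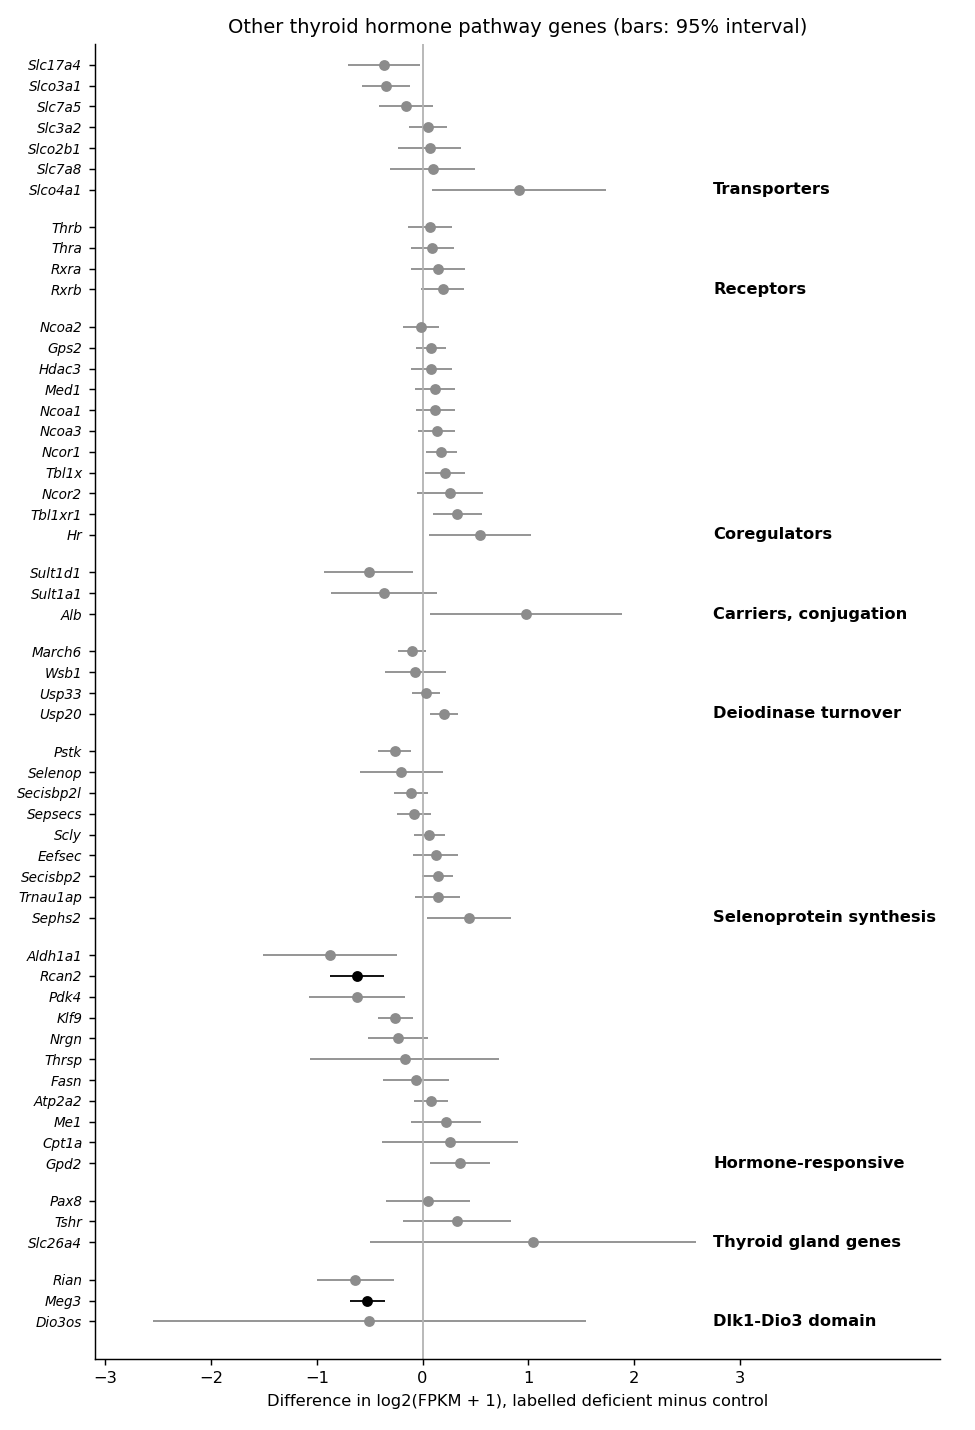
Difference in log2(FPKM + 1), labelled deficient minus control, for other thyroid hormone pathway genes tested, grouped by list; points are estimates from limma with 95% confidence intervals, black where the adjusted p was under 0.05. Meg3 and Rcan2 are the 2 black points, at -0.52 and -0.62.

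The genes whose profile over the 6 libraries was most like that of a member were found by the root mean square difference between log2(FPKM + 1) values centred on each gene. Nearest to Dio2 were Tspan1, a tetraspanin (0.14), Ltbp1, a latent TGF-beta binding protein (0.21), and Il1f8, an interleukin 36 cytokine (0.24), against 0.78 for the size of the Dio2 profile itself. Tspan1 stood at 7.44, 5.34 and 4.12 FPKM in the controls and 16.8, 18.9 and 15.6 FPKM in the deficient libraries, so its lowest library was the same as for Dio2. Nearest to Dio3 were Angptl7, a secreted angiopoietin-like protein (0.60), Kcne4, a potassium channel subunit (0.68), and Gpr83, a G protein-coupled receptor (0.73), against 1.46 for Dio3 itself. Angptl7 was at 113.9, 83.0 and 144.4 FPKM and at 46.8, 29.96 and 20.2 FPKM, highest in control 3 and lowest in deficient 3 as Dio3 was. Slc16a10 varied so little (0.11) that its nearest genes, Tmem60, Rnf11 and Rab5c (0.02 each), are genes with small differences of the same order. No test was made of these likenesses.

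**Figure D5:**
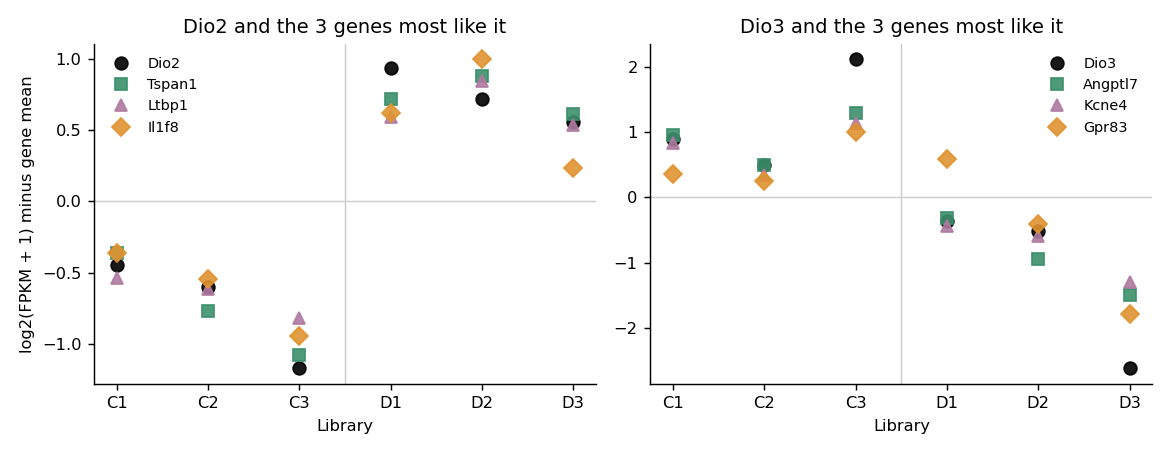
Profiles of Dio2 (left) and Dio3 (right), black circles, with the 3 genes most like each, as log2(FPKM + 1) minus the mean of the gene over the 6 libraries; C1 to C3 are controls and D1 to D3 libraries labelled deficient. Dio2 and its neighbours are below their means in every control and above in every deficient library, and Dio3, Angptl7 and Kcne4 are extreme in C3 and D3, with Gpr83 overlapping between the groups.

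Cell type markers differed between the groups in some lists and not in others. Of 7 uterine identity genes 6 were tested, with 0 calls. Hoxa10, between 24.5 and 34.0 FPKM, Hoxa11 and Pgr overlapped between the groups. Esr1 and Emx2 were above every control in every deficient library, and Hand2 was below. Wnt7a, under the minimum mean, was at most 0.515 FPKM. In the smooth muscle list 6 of 6 genes fell, and the summed level was between 7805 and 9599 FPKM in the controls and between 3114 and 3693 FPKM in the deficient libraries. In the epithelium list 2 of 5 tested rose, with sums between 540.8 and 603.9 and between 696.0 and 914.3 FPKM. The decidua list had 0 of 3 tested called, with sums between 75.9 and 371.7 FPKM in the controls and between 14.98 and 38.1 FPKM in the deficient libraries. Most of the control sum was 1 gene, the prolactin family member Prl8a2, at 154.7, 354.6 and 60.4 FPKM in controls 1 to 3 and 5.44, 26.5 and 0.664 FPKM in deficient 1 to 3. The members of the decidua list did not share a direction: Hand2 and Cyp11a1 were below every control in every deficient library, Bmp2 was above, and Prl3c1 was at most 0.058 FPKM. In the mast cell list 4 of 5 fell, with sums between 27.7 and 33.9 and between 2.96 and 5.25 FPKM. Endothelium, macrophage and stromal fibroblast lists had 0 calls of 5 each, and the stromal sum was lower in every deficient library (3515 to 3549 against 3988 to 4284 FPKM). Within the stromal list Col1a1 and Col3a1, which make up most of the sum, were below every control, Dcn and Lum overlapped, and Pdgfra was above every control. Trophoblast and yolk sac or embryonic red cell markers were near 0, with sums of at most 1.71 and 1.09 FPKM in any library. Gcm1, Synb and Apoa4 were at 0 in every library. The trophoblast sums overlapped. The yolk sac and red cell sum was 0.32 to 1.09 FPKM in the controls and 0.078 to 0.261 FPKM in the deficient libraries. In that list Hbb-y and Apoa1 were above every deficient library in every control, and the other genes overlapped. No gene of either list reached the minimum mean. The part of these cell types in the levels of Dio2 and Dio3 was not tested, and in bulk tissue fewer cells of a type and less RNA per cell cannot be told apart.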

How the data were processed

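FPKM values for 6 uterine libraries, 1 column per library, are as deposited by the authors. The submitters' processing notes name build mm10, STAR 2.7.0f, cutadapt 2.7 and DESeq2 1.24.0, with no role or order. The labels matched every column. Strandedness, annotation, counting program and FPKM formula were not given in the sources used here. A few very abundant transcripts can lower the FPKM of all others in a library.

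Libraries labelled deficient were compared with controls on log2(FPKM + 1) by lmFit and eBayes with trend (limma 3.58.1, R 4.3.3), over the 12500 genes whose mean reached 1 FPKM, with Benjamini-Hochberg adjustment over all of them and a threshold of 0.05. The code was tested on simulated data for 3 against 3 libraries of 12500 genes: 85% of 200 genes with a 2-fold change were recovered, and 6 calls were false. Noise was independent between genes there.

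Members, lists, motifs and alternatives were chosen with earlier results of these data known. Named were all members, pathway genes past the threshold, up to 4 per pathway list with the smallest p, the 3 profiles nearest to each member whose mean reached 1 FPKM (models without a standard symbol left out) and genes within 250 kb of a member past the threshold. A gene that the rule names is not reported here and not plotted. Slco1c1, Mirg, Begain, Dlk1, Rtl1, Crym, Ttr, Mir1247, Gpd2, Thrsp, Tg, Nkx2-1 and the marker genes outside this rule were chosen after their values were seen. Positions are from GENCODE M21 (GRCm38, the assembly also called mm10), except those of the promoter windows. Alternatives were a pseudocount of 0.1, no filter, 3 other scalings (a sum of 1000000, median-of-ratios, quantile), a replicate block, and fits that left out libraries.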

Additional observations from a re-analysis of the deposited data

How the results depend on the processing

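Dio2 was higher and Dio3 lower in the libraries labelled deficient under all 13 alternatives, but most of these could not have turned the direction. The filter and the replicate block leave the values as they are. Since the groups of both genes did not overlap, leaving out libraries or changing the pseudocount cannot reverse the order. Only the 3 other scalings could have done so. Leaving out 1 library moved the log2 difference between 1.26 and 1.62 for Dio2, -2.74 and -1.61 for Dio3, 0.05 and 0.22 for Dio1 and -0.11 and 0.07 for Slc16a10, and the Dio2 to Dio3 distance between 3.12 and 4.22. With the third library of both groups left out, Dio3 moved to -1.14 and that distance to 2.48. Dio1 moved from 0.15 to 0.85 with a pseudocount of 0.1 and to 0.35 after rescaling to a sum of 1000000, by construction, since its values are near 0.

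The number of genes past the threshold, 417, was 192 with no filter and 1275 (619 higher, 656 lower) with the third library of both groups left out, and between 99 and 525 with 1 library left out. The split of 168 higher and 249 lower was 218 and 211 after rescaling to a sum of 1000000, 123 and 391 with median-of-ratios scaling and 131 and 338 with quantile normalization. The pathway count of 2 was 1 with no filter, 4 with median-of-ratios scaling (Meg3, Rian, Rcan2 and Pstk), 4 with quantile normalization (Meg3, Rcan2, Pstk and Slco3a1) and between 0 and 5 with 1 library left out. With the third library of both groups left out it was 9, and 7 among the 33 genes named by rule, which otherwise gave the same counts except for 0 to 4 with 1 library left out. Dio3os reversed, from -0.50 to 0.70. Except where stated, the cause of these changes was not tested.

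With the replicate number as a block, 143 genes and 0 pathway genes passed. Nothing in the labels says what a number marks. Deviations from the group means correlated at -0.136, 0.079 and -0.132 across genes for numbers 1, 2 and 3. Pairs with unlike numbers correlated at -0.132 to 0.2. These few correlations can neither show nor exclude that libraries of 1 number share more than the number. Dio1 is limited by its low values, which were at or under 0.016 FPKM in 4 of 6 libraries.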

Other observations

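Genes around the members on the chromosome were also compared, within 250 kb in the annotation. Dio1 had 9 neighbours tested, of which 2 rose and 0 fell, while 1.34% of all genes tested rose. The 2 were far from Dio1 within the window, with gaps of 203196 bases (Cyb5rl) and 224596 bases (Mrpl37). No tested gene nearer to Dio1 passed, Yipf1 and Hspb11 at 7193 and 11526 bases included. Cyb5rl, a cytochrome b5 reductase-like gene (chr4:107066988-107088268), was at 5.05 ± 0.93 FPKM in the controls and 11.8 ± 0.97 FPKM in the libraries labelled deficient (SD, n = 3 each). Its log2 difference was 1.09 (limma adjusted p = 0.011, but 0.057 without control 2 and 0.059 with no filter). Mrpl37, a mitochondrial ribosomal protein gene next to it (chr4:107055874-107066868), had a log2 difference of 0.50 (limma adjusted p = 0.029, lost with no filter at 0.076 and without any 1 library other than deficient 3, up to 0.13). Dio3 had 3 neighbours tested and Slc16a10 had 5, with 0 calls in either, and Dio2 had 0 neighbours in the table within that distance.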
